A study of Homo sapiens with 4 samples.

Results

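The genes described here are TFPI2, which encodes a secreted Kunitz-type protease inhibitor, and 8 genes of the tissue factor and plasminogen activator system: TFPI, F3, THBD, PLAU, PLAUR, PLAT, SERPINE2 and SERPINB2. They were taken by name from a table of 37450 features, and all 9 were present. RNA was sequenced from 143B cells, a human osteosarcoma line, on day 2 after lipid-based transfection with siRNA against CBX3 (siCBX3, 2 libraries) or with the control labelled siNC, whose genotype is given as WT (2 libraries). The siRNA sequences and their number are not given in the sources used here. Both groups were cells of the same line, cultured in serum-containing medium, and whether the libraries of a group came from separate cultures is not stated. The p-values below therefore reflect the variation among these libraries alone, and that variation may be technical. The product of CBX3, HP1γ, is a heterochromatin protein that recognises histone H3 methylated at lysine residues.

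Tissue factor, the product of F3, is the cell surface receptor that starts blood coagulation, and TFPI blocks the enzyme complex it forms. Thrombomodulin, from THBD, turns thrombin towards activation of the anticoagulant protein C. Plasminogen activators (uPA from PLAU, tPA from PLAT) convert plasminogen into plasmin, a protease that dissolves fibrin and degrades extracellular matrix. The uPA receptor, from PLAUR, holds uPA at the cell surface, where this proteolysis is known for its part in invasion by tumour cells, osteosarcoma included. Inhibitors restrain each step: PAI-2 (SERPINB2) and protease nexin-1 (SERPINE2) act on the activators, and TFPI2 is deposited in the matrix and inhibits plasmin.

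The members were selected on these same measurements, with the counts and log2 fold changes of siCBX3 against siNC in view. Their differences between the groups are therefore given as descriptions, with a standard error (SE) and no p-value. In outline, transcripts of 3 secreted inhibitors, TFPI2, SERPINE2 and TFPI, were 28.6-fold, 4.81-fold and 2.80-fold higher in siCBX3 libraries, and those of the activator PLAT were 3.76-fold lower. PLAU and PLAUR had the highest levels of the 9 genes in siNC, and their fold changes were small and moved with single libraries. All 9 genes passed the filter on low counts, and 7 of them (4 higher, 3 lower in siCBX3) passed an adjusted p of 0.05 in the edgeR quasi-likelihood fit over all genes, where 48.4% of 20999 tested genes passed, 24.4% higher and 24% lower. TFPI2, SERPINE2, TFPI and PLAT also differed by 1 or more on the log2 scale, as did 12.8% of tested genes: 3 members were in the higher direction, with 6.41% of tested genes, and 1 in the lower, with 6.42%. Since the members were chosen on this contrast, nothing is read from these counts. The libraries are bulk RNA, in which fewer cells expressing a gene and less RNA per cell cannot be told apart.

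Total counts lay between 36509298 and 40336907 per library, and no library stood apart: log2 CPM (counts relative to the library total, scaled by the trimmed mean of M values, TMM) had a Pearson correlation across genes of 0.991 within each group and of 0.957 to 0.961 between groups. The targeted gene CBX3 had 57.3 and 57.1 CPM in siCBX3 and 539 and 508 CPM in siNC. Of 9 markers of mesenchymal or osteoblast-lineage cells, VIM and SPARC were abundant and ALPL had at most 4 counts in any library. Their summed level was 3275 to 3361 CPM in siCBX3 and 1198 to 1218 CPM in siNC, with SPARC 5.40-fold and VIM 2.02-fold higher in siCBX3. Endothelial cells are a main site of TFPI, THBD and PLAT expression in the body, but of their 10 markers EMCN was at 0 in every library, and CDH5, TEK, VWF and CLDN5 had at most 20 counts. Of the others, ROBO4 had 725 and 749 counts in siCBX3 and 146 and 210 in siNC (log2 fold change 2.18), and ESAM had a log2 fold change of -1.51. The summed level of that list was 141 to 159 CPM in siCBX3 and 103 to 111 CPM in siNC, most of it TIE1. Epithelial markers summed to 788 to 802 CPM in siCBX3 and 1292 to 1297 CPM in siNC, nearly all of it KRT8 and KRT18, with CDH1 at 8 counts or fewer. Leukocyte and platelet markers summed to 597 to 660.3 CPM in siCBX3 and 399 to 432 CPM in siNC, nearly all of it CD68, with PTPRC at 18 counts or fewer. The part of these sums in the results below was not tested.

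The promoters of 4 members hold the 7-base letters of the AP-1 motif, TGANTCA, and are shown for these letters. RefSeq promoter windows (build GRCh38.p14, 250 bases before to 50 after a start) of 7 of the 9 genes were searched, 2 each for SERPINE2 and PLAU. PLAT was left out of the search by choice, and no window was found for THBD. Each sequence below runs 5′ to 3′ on the gene's own strand, with AP-1 matches and the NF-kB match in capitals.
TFPI2 (chr7:93890704-93891003, minus strand): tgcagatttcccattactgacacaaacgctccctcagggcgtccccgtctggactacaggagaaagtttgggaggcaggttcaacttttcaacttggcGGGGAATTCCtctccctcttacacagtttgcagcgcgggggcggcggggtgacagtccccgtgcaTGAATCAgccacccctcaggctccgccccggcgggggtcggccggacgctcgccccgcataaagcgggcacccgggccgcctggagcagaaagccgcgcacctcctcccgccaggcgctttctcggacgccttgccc
F3 (chr1:94541710-94542009, minus strand): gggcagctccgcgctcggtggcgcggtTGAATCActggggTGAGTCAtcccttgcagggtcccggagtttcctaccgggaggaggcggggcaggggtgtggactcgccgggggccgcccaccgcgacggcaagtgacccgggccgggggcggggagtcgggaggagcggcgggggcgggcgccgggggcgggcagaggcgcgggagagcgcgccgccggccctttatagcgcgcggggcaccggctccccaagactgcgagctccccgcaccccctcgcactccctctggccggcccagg
PLAUR (chr19:43670120-43670419, minus strand): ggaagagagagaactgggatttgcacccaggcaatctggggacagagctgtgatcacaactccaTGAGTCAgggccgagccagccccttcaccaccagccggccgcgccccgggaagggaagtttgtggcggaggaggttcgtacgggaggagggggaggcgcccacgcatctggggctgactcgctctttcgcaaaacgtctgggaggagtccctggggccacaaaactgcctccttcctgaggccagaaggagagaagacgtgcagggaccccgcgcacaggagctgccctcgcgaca
SERPINB2 (chr18:63887455-63887754, plus strand): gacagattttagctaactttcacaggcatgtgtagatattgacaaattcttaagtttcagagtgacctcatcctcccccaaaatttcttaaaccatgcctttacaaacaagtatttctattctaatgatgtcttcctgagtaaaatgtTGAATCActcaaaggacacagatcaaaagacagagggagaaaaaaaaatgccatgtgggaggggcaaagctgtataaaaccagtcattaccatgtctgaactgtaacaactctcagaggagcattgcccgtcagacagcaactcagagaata

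The AP-1 match of TFPI2 lay 87 to 81 bases before the start, the pair in F3 at 223 to 217 and 210 to 204 bases, that of PLAUR at 186 to 180 bases and that of SERPINB2 at 102 to 96 bases. Starts here are those of RefSeq, and for these genes they lie inside the gene spans given below. The matches of TFPI2, PLAUR and SERPINB2 also lie inside those spans. The pattern is its own reverse complement, so each match counts once. AP-1 matches occurred in 4 of the 9 windows, against 7.71% of 35116 promoter windows in the same table. In the 150 bases from 100 before to 50 after the start, only the TFPI2 match was left, against 3.95% of all windows. The NF-kB consensus was searched on both strands and occurred in the TFPI2 window alone among the 9, as GGGGAATTCC at 152 to 143 bases before the start, against 11.3% of all windows, and it overlaps no AP-1 match. A TATAAA element on either strand was present in F3 and SERPINB2, 28 to 23 and 30 to 25 bases before the start, against 11.5% of all windows. The GC box GGGCGG, on either strand, was present in 5 of the 9 windows and in 45% of all windows, and TGACGTNN in 0 of the 9 and in 7.96%. These matches are letters only, and since the members were chosen on this contrast, nothing is read from their shares. The 4 genes with an AP-1 match had log2 fold changes between -0.32 and 4.84, and a link with the letters was not tested.

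TFPI2 (chromosome 7, 93885397 to 93890991, minus strand, GRCh38) was the member with the largest difference. It had 21064 and 23088 counts in siCBX3 and 730 and 960 counts in siNC. In CPM, its level was 598 and 609 CPM in siCBX3 and 19.4 and 22.8 CPM in siNC, so both siCBX3 libraries stood far above both siNC libraries. The means were 603 ± 8.22 CPM in siCBX3 and 21.1 ± 2.41 CPM in siNC (SD, n = 2 each), and the log2 fold change was 4.84 (SE 0.09). Among tested genes 99.8% had a smaller log2 fold change than TFPI2. TFPI2 alone took 0.0577% and 0.0596% of all counts in siCBX3 and 0.00196% and 0.00238% in siNC.

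TFPI (chromosome 2, 187464230 to 187565760, minus strand), the Kunitz inhibitor of factor Xa and of the tissue factor complex, had 124 and 130 CPM in siCBX3 and 49.2 and 41.5 CPM in siNC. The groups did not overlap, and the log2 fold change was 1.49 (SE 0.09). Per unit of gene length, in deposited RPKM (read counts relative to gene length and library total), TFPI2 stood at 21.2 and 20.5 times the level of TFPI in siCBX3 and at 1.73 and 2.41 times in siNC. In RPKM, TFPI2 was thus above TFPI in every library, by far more in siCBX3 than in siNC. The order in siNC rests on the gene lengths used, 2663 bases for TFPI2 and 11714 for TFPI. In CPM, TFPI2 was below TFPI in siNC, at 19.4 and 22.8 CPM, and above it in siCBX3.

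The plot of RPKM by library shows the 9 genes on 1 scale.

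**Figure D1:**
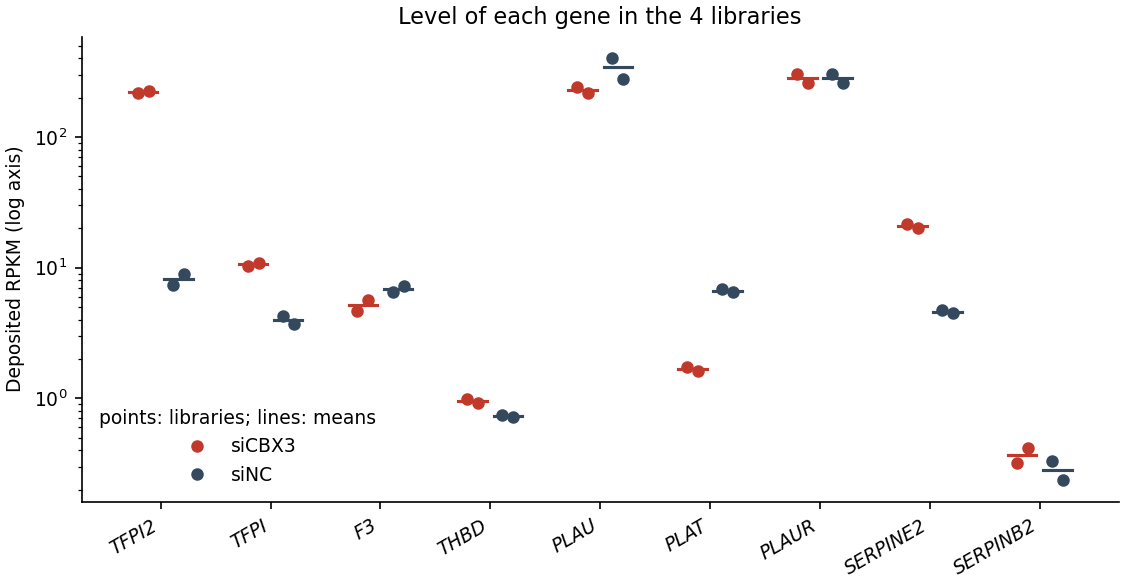
Deposited RPKM of the 9 genes on a log axis, with 1 point per library (siCBX3 red, siNC dark blue) and a line at each group mean. TFPI2 averaged 220.3 RPKM in siCBX3, close to PLAU and PLAUR, and 8.14 RPKM in siNC, while PLAT averaged 1.68 RPKM in siCBX3 and 6.67 RPKM in siNC.

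F3 (chromosome 1, 94529225 to 94541800, minus strand), the tissue factor gene, had 13.9 and 16.7 CPM in siCBX3 and 18.4 and 19.9 CPM in siNC. The groups did not overlap, but the higher siCBX3 library lay close to the lower siNC library, and the log2 fold change was -0.32 (SE 0.11). It moved to -0.20 without siCBX3 replicate 1 and to -0.26 without siNC replicate 2, and in both cases no longer passed the threshold. In RPKM, the inhibitor TFPI stood at 2.18 and 1.92 times the level of F3 in siCBX3 and at 0.657 and 0.512 times in siNC. The order in siNC rests on the gene lengths used, 11714 bases for TFPI and 2875 for F3. In CPM, TFPI was above F3 in every library, with 49.2 and 41.5 CPM in siNC.

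THBD (chromosome 20, 23045633 to 23049741, minus strand), a gene of a single exon, was expressed at a low level. It had 148 and 146 counts in siCBX3 and 114 and 120 in siNC, which is 4.198 and 3.85 CPM in siCBX3 and 3.03 and 2.85 CPM in siNC. The log2 fold change was 0.45 (SE 0.19), and THBD passed the threshold in only 2 of 14 alternative analyses. It did not pass after leaving out any 1 of the 4 libraries.

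PLAU (chromosome 10, 73909177 to 73917497, plus strand), the gene of uPA, had 733 and 659 CPM in siCBX3 and 1178 and 788 CPM in siNC. All siCBX3 values lay below the siNC values, but the siNC libraries differed 1.495-fold from each other, and replicate 1 alone was far above the rest. The log2 fold change was -0.50 (SE 0.11), -0.18 without siNC replicate 1 and -0.76 without siNC replicate 2. The means were 696 ± 52.4 CPM in siCBX3 and 983 ± 276 CPM in siNC (SD, n = 2 each). PLAU shares 916 of its exon bases, 31.1%, with C10orf55 on the opposite strand, which had a log2 fold change of -0.42 (SE 0.11, adjusted p 0.00266, edgeR), and reads of the pair cannot be told apart where counting ignores strand. Without siNC replicate 1, C10orf55 had -0.11 and did not pass.

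PLAT (chromosome 8, 42175233 to 42207724, minus strand), the gene of tPA, was the member with the largest negative fold change. It had 422 and 413 counts in siCBX3 and 1684 and 1738 counts in siNC, which is 11.97 and 10.9 CPM in siCBX3 and 44.7 and 41.3 CPM in siNC. The libraries of each group lay close together and the groups far apart, with a log2 fold change of -1.91 (SE 0.10). In RPKM, PLAU stood at 137 and 136 times the level of PLAT in siCBX3 and at 59.1 and 42.8 times in siNC, so uPA was the main activator transcript in both groups.

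PLAUR (chromosome 19, 43646095 to 43670547, minus strand), the uPA receptor gene, had 1405 and 1183 CPM in siCBX3 and 1346 and 1098 CPM in siNC. The groups overlapped, and in CPM it was the 1 member of 9 for which they did, while the groups did not overlap for 73.9% of all tested genes. For SERPINB2 the lower siCBX3 library had 0.908 CPM and the higher siNC library 0.902 CPM. In RPKM these libraries had 0.319 and 0.332, so the groups overlapped there. The log2 fold change of PLAUR was 0.08 (SE 0.09). Leaving out 1 library at a time moved it between -0.05 and 0.24, and without siNC replicate 1 it passed the threshold.

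Among the inhibitors of the activators, SERPINE2 (chromosome 2, 223975112 to 224039319, minus strand), which encodes protease nexin-1, an inhibitor of thrombin, uPA and tPA, had 198 and 184 CPM in siCBX3 and 41.4 and 38.1 CPM in siNC. The groups were far apart beside the spread within each, and the log2 fold change was 2.27 (SE 0.08). SERPINB2 (chromosome 18, 63871692 to 63903890, plus strand), the gene of PAI-2, was near the detection limit, with 32 and 44 counts in siCBX3 and 34 and 26 in siNC. Its raw counts overlapped between the groups and its log2 fold change was 0.45 (SE 0.36). SERPINB2 shares 547 exon bases, 19.9% of its own, with the neighbouring SERPINB10 on the same strand, which had 25 counts or fewer in each library. Among features with 1 to 20 counts, a range below that of SERPINB2, 74.3% to 75.6% of counts were even numbers in each library. The share was 55.2% to 56% at 100 to 1000 counts and 50.4% to 53.4% at 10000 or more. Counts may thus hold fewer independent molecules than their number. An even share near 50% at high counts cannot show whether this holds there too, and the cause was not tested.

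**Figure D2:**
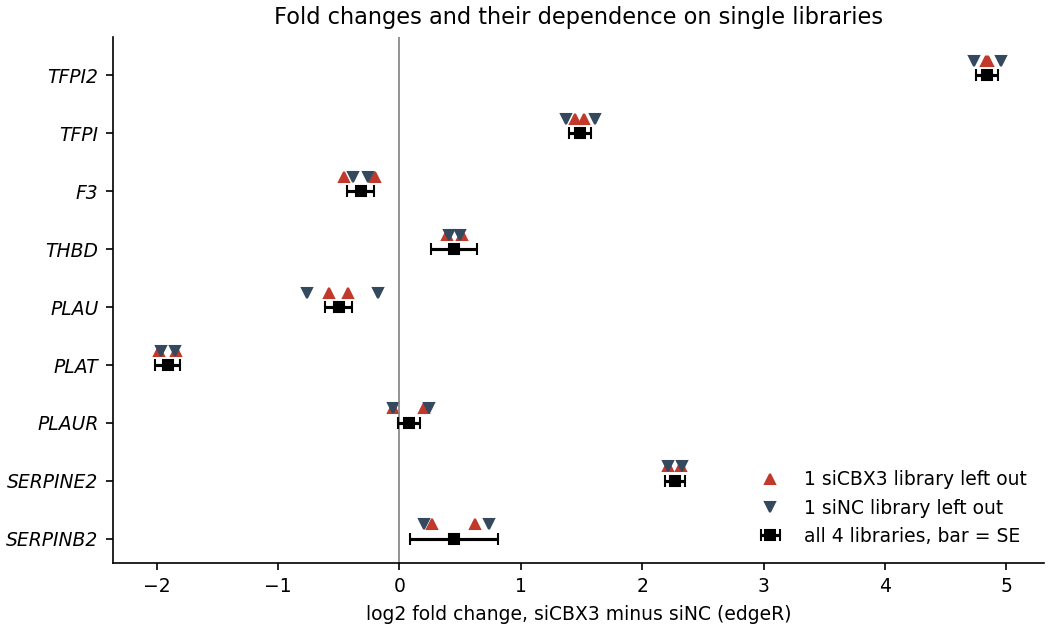
Log2 fold change of the 9 genes, siCBX3 minus siNC, from edgeR (black squares, bars are SE), with the values after leaving out 1 siCBX3 library (red) or 1 siNC library (blue). TFPI2, SERPINE2, TFPI and PLAT keep their place whichever library is left out, while PLAU ranges from -0.76 to -0.18 and PLAUR lies on both sides of 0.

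Ordered by mean RPKM, the siCBX3 libraries had PLAUR (282), PLAU (229), TFPI2 (220.3), SERPINE2 (20.9), TFPI (10.6), F3 (5.18), PLAT (1.68), THBD (0.952) and SERPINB2 (0.366). PLAU and TFPI2 did not differ beyond the spread of their libraries, and every other pair of neighbours in this order did. In siNC the order was PLAU (341), PLAUR (281), TFPI2 (8.14), F3 (6.85), PLAT (6.67), SERPINE2 (4.58), TFPI (3.97), THBD (0.734) and SERPINB2 (0.283). There, PLAU and PLAUR overlapped, as did F3 and PLAT. Both orders depend on the gene lengths used, from 2663 bases for TFPI2 to 11714 for TFPI. In CPM, the siNC levels of TFPI, PLAT and SERPINE2 were above that of TFPI2. By mean RPKM, the level of TFPI2 was above that of 99.1% of tested genes in siCBX3 and above that of 76.7% in siNC.

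Within a library the RPKM values of the 9 genes can be set against each other without any scaling between libraries. TFPI2 made up 27.1% and 30.2% of their sum in siCBX3 and 0.995% and 1.57% in siNC. PLAU made up 29.97% and 29.5% in siCBX3 and 54.6% and 49.1% in siNC, and PLAUR 38.0% and 35.0% in siCBX3 and 41.3% and 45.3% in siNC. The ratio of TFPI2 to PLAU was 0.903 and 1.02 in siCBX3 and 0.0182 and 0.0320 in siNC, so transcripts of the matrix inhibitor reached the level of those of the activator.

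**Figure D3:**
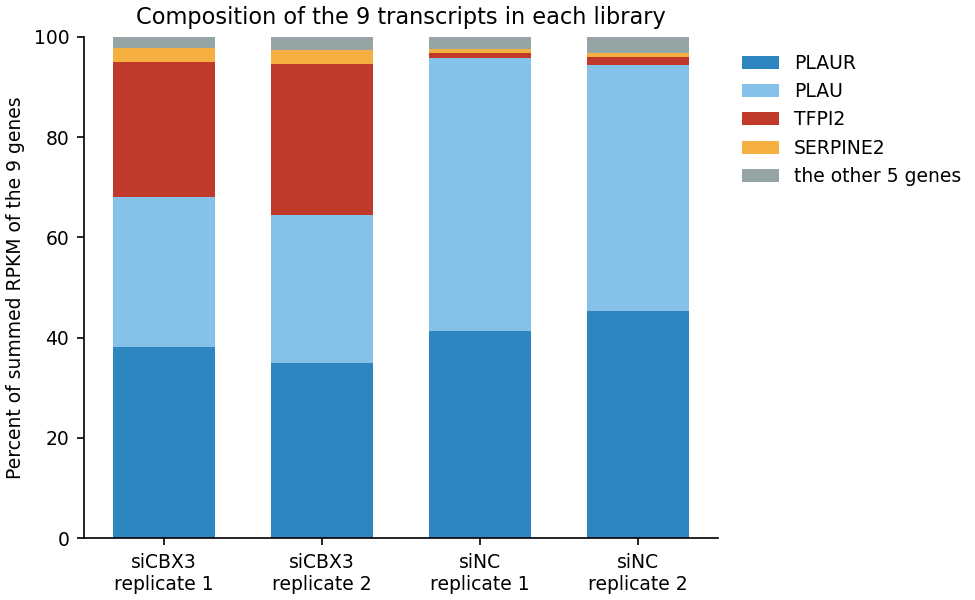
Share of each gene in the summed RPKM of the 9 genes, as a percentage, with 1 bar per library. TFPI2 (red) takes 27.1% and 30.2% in the siCBX3 libraries and 0.995% and 1.57% in the siNC libraries, and SERPINE2 takes 2.69% and 2.72% in siCBX3 and 0.636% and 0.787% in siNC.

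Genes other than the members were taken from a list of 26 drawn up for plasminogen activation. For STX4 and NID1, which both rose, no role in it is given here. Of the 26, 18 were tested, 6 rose and 5 fell, where 24.4% of all tested genes rose and 24% fell. Their log2 fold changes had a median of 0.15, and those of all tested genes one of -0.01. Receptors that take up or sort uPA and its complexes moved both ways. LRP1, which clears uPA bound to its inhibitors, rose (log2 fold change 0.87, SE 0.08, adjusted p 4.27e-09, edgeR), with 70.4 ± 3.18 CPM in siCBX3 and 38.5 ± 2.03 CPM in siNC. MRC2, a collagen receptor that associates with the uPA receptor, rose by 1.15, and IGF2R, which binds the uPA receptor and plasminogen, by 0.80. The related receptors VLDLR (-1.03) and SORL1 (-1.60) fell, SORL1 to 17.4 ± 0.403 CPM in siCBX3, against 52.7 ± 4.67 CPM in siNC. LRP2 also fell, at low counts, with 0 and 11 in siCBX3 and 46 and 34 in siNC. STX4, which encodes a plasma membrane SNARE protein, rose by 1.05. Among plasminogen receptors, ANXA2 (-0.58) and ENO1 (-0.42) fell, while S100A10, the partner of ANXA2, had a log2 fold change of 0.10 (SE 0.08) and did not pass. ANXA2 and ENO1 have pseudogenes whose reads could be shared with them. PLG, the plasminogen gene itself, had 0 and 0 counts in siCBX3 and 2 and 0 counts in siNC and was not tested, and no untested gene of this list exceeded 11 counts in a library.

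In the list of 37 coagulation genes and protease-activated receptors, 36 were in the table, 21 were tested, 4 rose and 8 fell, with a median log2 fold change of -0.07. The 12 genes past the threshold compare with 48.4% of all tested genes. Protease-activated receptors moved in opposite directions: F2R, which encodes the thrombin receptor PAR1, rose by 0.54 (SE 0.09, adjusted p 2.04e-05, edgeR), while F2RL1 (PAR2, which trypsin-like proteases activate) had -0.32 and F2RL2 (PAR3) -1.32, and both fell. PROCR, the protein C receptor that works beside thrombomodulin, fell to 26.5 ± 0.179 CPM in siCBX3, against 60.9 ± 1.95 CPM in siNC (log2 fold change -1.20, SE 0.08, adjusted p 1.88e-11, edgeR). SERPIND1, the gene of heparin cofactor II, a thrombin inhibitor, fell by 0.85, GGCX, the enzyme that carboxylates vitamin K-dependent clotting factors, by 0.61, and ANXA5, which binds exposed phosphatidylserine, by 0.41. P4HB (0.58), the gene of protein disulfide isomerase, rose, as did PROS1 (0.48), the protein C cofactor, and SERPINA10 (0.92), the protein Z-dependent inhibitor. F2RL1 did not pass without siNC replicate 1 (-0.18) or siCBX3 replicate 2 (-0.25). PROS1 did not pass without siNC replicate 2 or siCBX3 replicate 2, nor SERPINA10 without siCBX3 replicate 1. The genes of the clotting factors themselves were mostly untested, with at most 14 counts in any library among the untested genes of the list. Of those tested, F12 fell, with 31 and 16 counts in siCBX3 and 58 and 80 in siNC, while F8 and F13A1 did not pass.

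The third list held 31 relatives of TFPI2 and of the serpins: other proteins with a Kunitz domain, and serpins of several clades. Of these, 28 were present and 19 were tested. By edgeR 11 rose and 0 fell (24.4% and 24% of all tested genes), with a median log2 fold change of 0.44. Likewise 0 fell at an unadjusted p under 0.05, by DESeq2 and by limma-voom. The list leaves out serpins placed in the other lists and was drawn up with earlier results known, so the 0 depends on that division. Among the serpins tested there, SERPIND1 fell by 0.85, SERPINA10 rose by 0.92, and the others did not pass. Genes of the third list with the smallest adjusted p included COL7A1 and COL6A3, collagens that carry a Kunitz domain. They rose by 2.24 and 2.00 (SE 0.08 each, adjusted p 1.61e-17 and 7.08e-16, edgeR). COL6A3 had 3184 ± 62.3 CPM in siCBX3 and 795.5 ± 84.1 CPM in siNC. SERPINF1, the gene of the anti-angiogenic protein PEDF, rose by 1.66 and SERPINH1, a collagen chaperone, by 0.78. The Kunitz inhibitors of membrane proteases SPINT1 and SPINT2 had at most 18 and 42 counts and did not pass. SERPINB3 and SERPINB4, chosen after their values were seen, had 14 and 36 and 14 and 12 counts in siCBX3 and 0 in every siNC library, and as near-identical copies they cannot be separated.

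**Figure D4:**
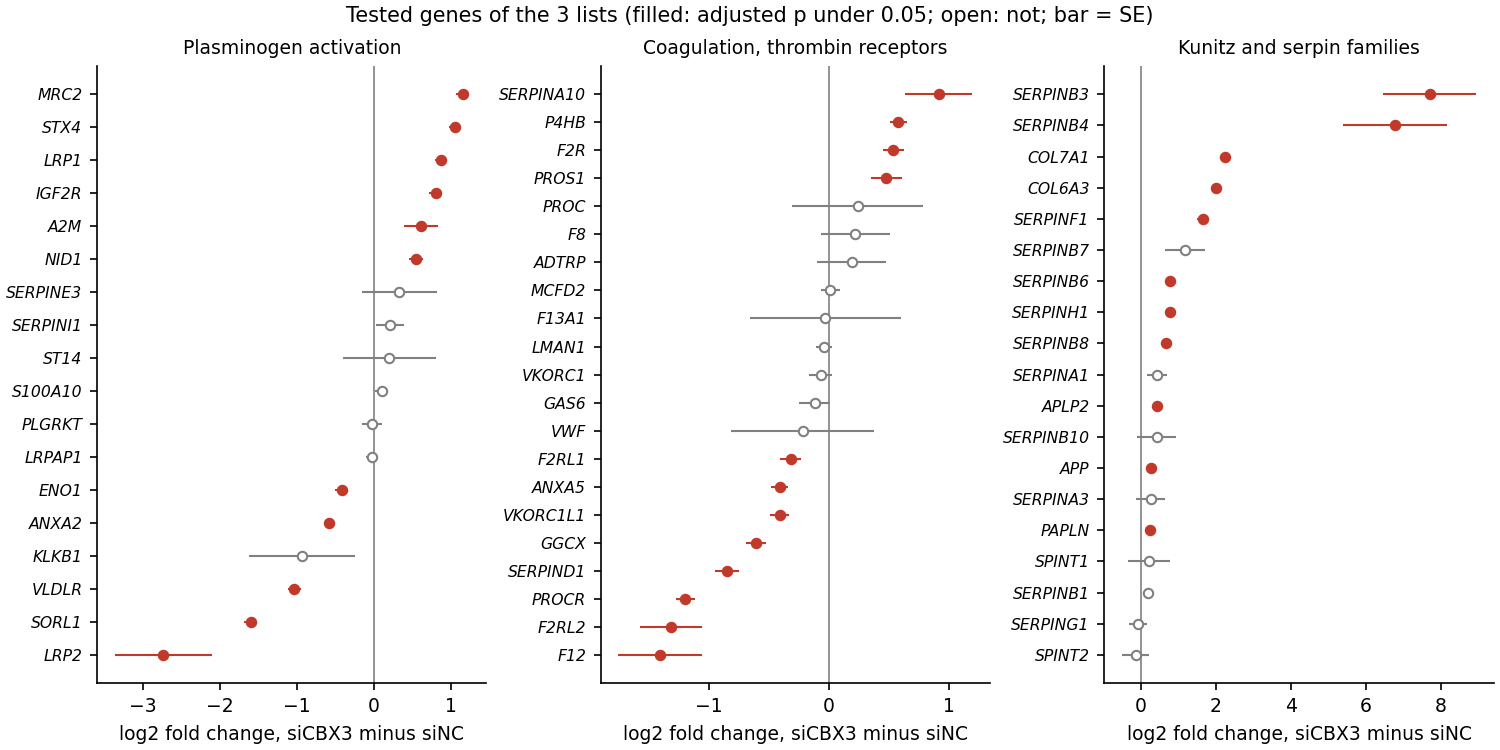
Log2 fold change (siCBX3 minus siNC, bars are SE) of the 18, 21 and 19 tested genes of the 3 lists, with filled points for an adjusted p under 0.05 in edgeR. Points lie on both sides of 0 in the first 2 lists, which also hold serpins. Every filled point of the third list lies above 0. The values of SERPINB3 and SERPINB4 are fitted against 0 counts in siNC and do not measure a size.

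Genes around TFPI2 on chromosome 7 were higher in siCBX3 as well. GNGT1, which encodes a G protein gamma subunit, spans TFPI2 on the opposite strand and shares 44 exon bases with it. It had 22.0 and 19.2 CPM in siCBX3 and 0.610 and 0.593 CPM in siNC (log2 fold change 5.09, SE 0.18, adjusted p 2.12e-17, edgeR), and its counts can include TFPI2 reads. TFPI2 also shares 79 exon bases, 3.0% of its own, with AC002076.10 on the opposite strand. That feature had 12 and 4 counts in siCBX3 and 0 in both siNC libraries, and was not tested. GNG11, another G protein gamma subunit gene, lies 30.7 kb from TFPI2, shares exon bases with no feature in the region, and had 46.7 and 51.3 CPM in siCBX3 and 3.98 and 3.56 CPM in siNC. It rose by 3.70 (SE 0.11, adjusted p 2.09e-18, edgeR), with no overlap between the groups. Within 500 kb of TFPI2, a span chosen after the values were seen, 5 of 12 features were tested, TFPI2 itself included, and all 5 were higher in siCBX3, where 24.4% of all tested genes were higher and past the threshold. TFPI2 was chosen on this contrast. The remaining genes, which both rose, were the vesicle transport gene BET1 (log2 fold change 0.94, SE 0.18) and the long non-coding RNA gene AC003092.1 (2.61, SE 0.17).

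**Figure D5:**
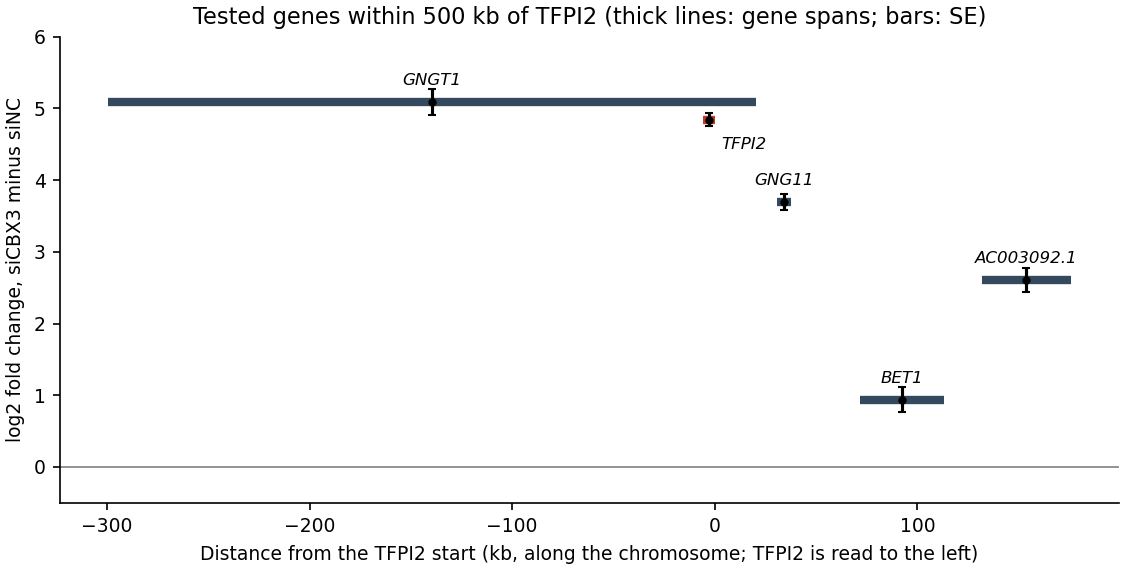
Log2 fold change (siCBX3 minus siNC, bars are SE) of the 5 tested genes within 500 kb of TFPI2, TFPI2 itself included, with thick lines for gene spans. The horizontal axis is the distance in kb from the upper end of the TFPI2 span, 93890991, and not from its RefSeq start. TFPI2 was chosen on these values, and the others also lie above 0, from 0.94 for BET1 to 5.09 for GNGT1, which spans TFPI2.

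The nearest tested neighbours of the other members had differences in both directions. Next to PLAT, AP3M2 (3.56 kb away) fell by 0.44 and IKBKB by 0.39, both less than PLAT. Next to SERPINE2, MRPL44 at 7.40 kb fell by 0.47 (adjusted p 0.000884, edgeR) and FAM124B had -0.72 and did not pass, both opposite in sign to SERPINE2. Next to PLAU, CAMK2G rose by 0.30 and VCL fell by 0.94, next to PLAUR, CADM4 fell by 0.99 and SMG9 rose by 0.47, and next to F3, ABCD3 fell by 0.49 and LINC01057 did not pass. Next to THBD, FOXA2 at 460 kb fell by 1.11 and the neighbour on the other side did not pass, and next to SERPINB2, HMSD rose by 0.61 and SERPINB7 did not pass. TFPI shares 118 exon bases with AC007319.1 on the opposite strand, which rose by 1.65 (SE 0.11), and had no other tested gene within 500 kb on either side.

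The genes most like TFPI2 were sought by Euclidean distance between log2 CPM values, centred on each gene, over the 4 libraries. The 5 nearest were LIF and CSF3 (distances 0.168 and 0.169), cytokine genes, followed by KLRK1, ROS1 and KLRC2 (0.178, 0.252 and 0.258), and 12 tested genes lay within 0.5. Their levels differed from TFPI2: LIF averaged 123 CPM in siCBX3 and 3.91 CPM in siNC, while KLRK1, ROS1 and KLRC2 averaged 3.54, 1.41 and 3.11 CPM in siCBX3 and 0.0740, 0 and 0.0503 CPM in siNC. At such siNC levels their distance to TFPI2 depends on the prior count of 2 in the log2 values. SERPINE2 lay closest to PLD1, DDX60L and GABARAPL1, PLAT to CCDC110, PLXNA2 and PHACTR3, and TFPI to IL1A, ANKS1B and MMP1, with 164, 261 and 609 tested genes within 0.5. The nearest gene was CENPL for F3, TMEM65 for THBD and PDE10A for PLAUR, and C10orf55 was among the 3 nearest for PLAU. For these 4 and SERPINB2 between 3116 and 8681 genes lay within that distance, so a nearest gene says little.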

How the data were processed

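Stranded mRNA libraries of 143B cells were prepared on day 2 after transfection, 2 with siCBX3 and 2 with siNC, per the labels' protocols. The submitters' processing notes name Trimmomatic 0.36, STAR 2.5.3a, featureCounts, Subread 1.5.1 and build GRCh38. What each tool did, the annotation, and how strand and shared reads were handled are not given in the sources used here. Read counts per gene and RPKM values for the same 37450 features were deposited by the authors, with 1 column per library per the file headers. RPKM equalled counts scaled by length and total (relative difference at most 3.8e-07).

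Counts were filtered with filterByExpr (minimum count 10, minimum total 15), scaled by TMM and fitted with group as the only term by edgeR 4.0.16 quasi-likelihood in R 4.3.3, with Benjamini-Hochberg adjustment over 20999 genes. The fit had 2 residual and 22 prior degrees of freedom. SE was taken as the absolute log2 fold change divided by the square root of the F statistic. Log2 CPM used a prior count of 2. Scaling choices moved the median log2 fold change of all genes by less than 0.1. DESeq2 1.42.0, limma 3.58.1, other scalings and filters, a replicate block and leaving out each library were alternatives. Python 3.11.15 with pandas 2.3.3 and matplotlib 3.10.9 was used for the other steps. In simulated counts for this comparison (20545 genes), 50 genes each were changed 1.25-fold, 1.5-fold, 2-fold and 4-fold. The changed genes all had a mean of at least 50 counts. Of each 50, edgeR called 14, 36, 48 and 50 in that order. Of all 151 calls, 3 were of genes simulated without a change. Far fewer genes were changed than passed in the data, so these rates need not hold for the data.

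The members and lists were chosen with earlier results of these data known. 1 gene was taken out of the plasminogen activation list and is not reported here. The genes named are the 9 members, CBX3, LRP1, F2R and PLG, up to 4 genes per list and direction with the smallest adjusted p, genes sharing exon bases with a member or nearest to it within 500 kb, and the 5 genes nearest to TFPI2 (3 for each other member). Genes outside this rule (NID1, S100A10, LRP2, F2RL1, F2RL2, F8, F12, F13A1, SPINT1, SPINT2, SERPINB3, SERPINB4, BET1 and AC003092.1, and markers named singly) were chosen after their values were seen. Gene spans and shared exon bases come from the count table, and promoters from RefSeq (GRCh38.p14).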

Additional observations from a re-analysis of the deposited data

How the results depend on the processing

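Over 14 alternatives TFPI2 lay between 4.60 and 4.96 on the log2 scale, TFPI between 1.22 and 1.61, SERPINE2 between 1.97 and 2.33 and PLAT between -1.99 and -1.52, each past the threshold in all 14. F3 (-0.46 to -0.20) passed in 10 and PLAU (-0.76 to -0.18) in 11, and both failed by the DESeq2 test and by limma on log2 RPKM plus 1. The count of members lower in siCBX3 was therefore 1 under each of these 2 alternatives, against 3. All alternatives reuse the libraries on which the members were chosen. For the members, passing or failing is therefore a description of dependence on processing and no further support for a difference. PLAUR passed in 1 of 14 and SERPINB2, which the filter at a mean of 50 counts removed, in 0 of 13. Counts over all genes and over the 3 lists stayed within 1.5 times, and no called direction reversed among the members, CBX3, and the list genes, endothelial markers and neighbours whose log2 fold changes are given. Apart from PLAUR, signs turned in genes that had not passed: leaving out 1 library at a time gave -0.14 to 0.80 for SERPINB10, -0.21 to 0.79 for SPINT1 and -0.39 to 0.16 for SPINT2. C10orf55 (-0.68 to -0.11) passed in 10 of 14. GNGT1 (2.91 to 5.19), GNG11 (2.87 to 3.78), AC003092.1 (1.96 to 2.71) and BET1 (0.45 to 1.27) passed in all 14. Distances between profiles were not recomputed. With the replicate block, 4 members were higher and 3 lower, as without it, and 5371 and 5259 genes passed over all, against 5132 and 5041. Deviations of same-numbered libraries had a correlation of 0.0481 across genes, and nothing in the labels pairs them. With 2 libraries a group small changes can be missed, and low counts limit SERPINB2 (SE 0.36) and THBD. The simulation called 36 of 50 changes of 1.5-fold, but it changed far fewer genes than passed in the data, and none at low counts.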
